A study of Mus musculus with 12 samples.

Results

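The *Mastl*, *Ensa* and PP2A-B55 axis was taken as 8 genes, chosen by symbol from the 24259 genes of the expression table. *Mastl* encodes the kinase known as Greatwall, and *Ensa* and *Arpp19* encode its small substrates. *Ppp2ca* and *Ppp2cb* encode the catalytic subunits of protein phosphatase 2A (PP2A), *Ppp2r1a* encodes a scaffold subunit, and *Ppp2r2a* and *Ppp2r2d* encode regulatory subunits of the B55 class. Of the 8 genes, 7 were above the minimum level for testing in every comparison and *Ppp2cb* was below it in every comparison.

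As background, MASTL phosphorylates ENSA and ARPP19 on a conserved serine, and the phosphorylated proteins then bind PP2A-B55 and inhibit it. PP2A-B55 removes phosphates that CDK1 has placed, so the axis keeps CDK1 substrates phosphorylated while a cell is in M phase. In mouse oocytes MASTL is known for its role in the passage from the first to the second meiotic division without a return to interphase. Full-grown oocytes hardly transcribe, and their stored mRNAs are either kept in ribonucleoprotein particles (RNPs) or loaded on polysomes.

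The libraries came from germinal vesicle (GV) stage oocytes of 3-week-old mice, collected 46 h after 5 IU of pregnant mare serum gonadotropin (PMSG), which every animal received. Wild-type (WT) mice were compared with *Lsm14b*-KO mice, homozygotes of the allele *Lsm14b* tm1a(KOMP)Mbp, a reporter-tagged insertion in the gene of the RNA-binding protein LSM14B, on the C57BL/6J background and carried by the whole animal. About 1500 oocytes were pooled in each lysate, with cycloheximide to hold ribosomes on the mRNA, and separated on a sucrose gradient. Fractions 1 to 10 formed the RNP pool and fractions 11 to 28 the polysome pool, with 3 libraries for each genotype and pool and 12 in all. Levels are in FPKM (fragments per kilobase of transcript and per mapped fragments of the library), so a difference is one in the share of a pool's mRNA and not in molecules per oocyte. In such pooled lysates, fewer oocytes with a transcript and less transcript per oocyte cannot be told apart.

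A stretch of the 3′ untranslated region (UTR) of *Mastl* is shown first, because the study's *Mastl* reporter was altered there as a site for LSM14B, the protein that the KO lacks. The capitals mark the 20 bases removed in that reporter, with 5 bases on either side. It lies at chr2:23117776-23117805 on the minus strand of GRCm38, in 1 exon of *Mastl*.
*Mastl* 3′ UTR: cttacTAGTGATGGAGTCTCACTGCcttga

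The site that makes ENSA and ARPP19 substrates of MASTL is shown next, because the paralogs carry the same site and could share reads there. The 18 capitals code for the residues around the phosphorylated serine, which are the same in both. The stretch of *Ensa* lies at chr3:95628544-95628573 and that of *Arpp19* at chr9:75056638-75056667, both on the plus strand and each within 1 exon.
*Ensa* coding: aagtacTTTGACTCAGGAGACTACaacatg
*Arpp19* coding: aagtatTTTGATTCTGGGGACTACaacatg
Counted from 1 at the 5′ end of the capitals, *Ensa* and *Arpp19* differ by C6T, A9T and A12G. Over their whole coding sequences 264 of 348 aligned bases are identical (75.9%), and the longest stretch their transcripts share is 20 bases. No window of 100 bases in the *Ensa* or the *Arpp19* transcript occurs in a transcript of another gene.

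The targeted gene checked the labels: *Lsm14b* stood at 27.4 to 34.6 FPKM in the WT RNP libraries and at 0 to 0.893 in the KO RNP libraries, and at 11.3 to 15.3 in the WT and 0 to 0.260 in the KO polysome libraries. All 10 oocyte markers were above 0 in every library. The table gives no counts, and the steps between low FPKM values put the depth at about 4620000 to 7790000 fragments a library. The KO polysome library of replicate 2 stood apart, with 34.7% of its FPKM in its 10 highest genes against 11.6 to 14.7% in the other 11 libraries. Markers of cumulus and granulosa cells, which surround the oocyte, summed to 27.2 to 75.5 FPKM in the WT and 78.9 to 103 in the KO polysome libraries, and to 31.3 to 37.0 and 42.7 to 66.0 in the RNP libraries. Of these 10 markers 2 to 7 were at 0 in each library. *Has2* was at 0 in all polysome libraries, as were *Foxl2* and *Amhr2*. Of the 6 markers that could be tested in polysomes 3 were higher in KO at an adjusted p under 0.05 (*Inha*, *Inhba* and *Fshr*) and none lower, beside 10.4% of all genes called. *Inhba* and *Fshr* held at most 0.252 and 0.700 FPKM in WT polysomes. They reached the minimum level for testing through the KO libraries alone, so they could only come out higher in KO. The count of 3 is thus a description. *Cyp19a1* (aromatase), which was not called, held 19.0 to 62.0 FPKM in WT and 14.6 to 34.5 in KO polysomes (change -0.54, SE 0.45, adjusted p = 0.495). In RNPs 1 of 4 tested was called, *Inha*, which was higher in KO (change 2.79, SE 0.43, adjusted p = 0.00238), beside 20.7% of all genes called. *Inha* held at most 0.240 FPKM in WT RNPs and 3.80 to 11.0 in KO RNPs. It too entered this test through the KO libraries alone, so its direction was fixed.

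Levels within the axis came first. In WT RNPs *Arpp19* led at 71.7 ± 19.2 FPKM (SD, n = 3), followed by *Mastl* at 59.7 ± 4.30, *Ensa* at 38.0 ± 8.58 and *Ppp2ca* at 36.9 ± 0.269. The B55 genes *Ppp2r2d* and *Ppp2r2a* followed at 26.5 ± 8.07 and 23.3 ± 3.04, and the scaffold *Ppp2r1a* was seventh at 19.4 ± 2.89. The libraries of *Arpp19* and *Mastl*, of *Ensa* and *Ppp2ca*, and of *Ppp2r2d*, *Ppp2r2a* and *Ppp2r1a* overlapped with those of their neighbours, while *Mastl* and *Ensa*, and *Ppp2ca* and *Ppp2r2d*, did not overlap. Within a library *Mastl* exceeded *Ensa* in 8 of 12, *Ppp2ca* in 11 of 12 and *Arpp19* in 1 of 12. In KO polysomes the order was *Ensa* (76.7 ± 18.0), *Arpp19* (76.3 ± 12.9), *Ppp2r1a* (63.8 ± 6.58), *Mastl* (49.8 ± 4.79) and *Ppp2ca* (49.0 ± 5.92), and *Ppp2r1a* did not overlap with *Mastl*. The scaffold thus stood last of the 7 expressed genes in WT RNPs and behind only *Ensa* and *Arpp19* in KO polysomes.

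**Figure D1:**
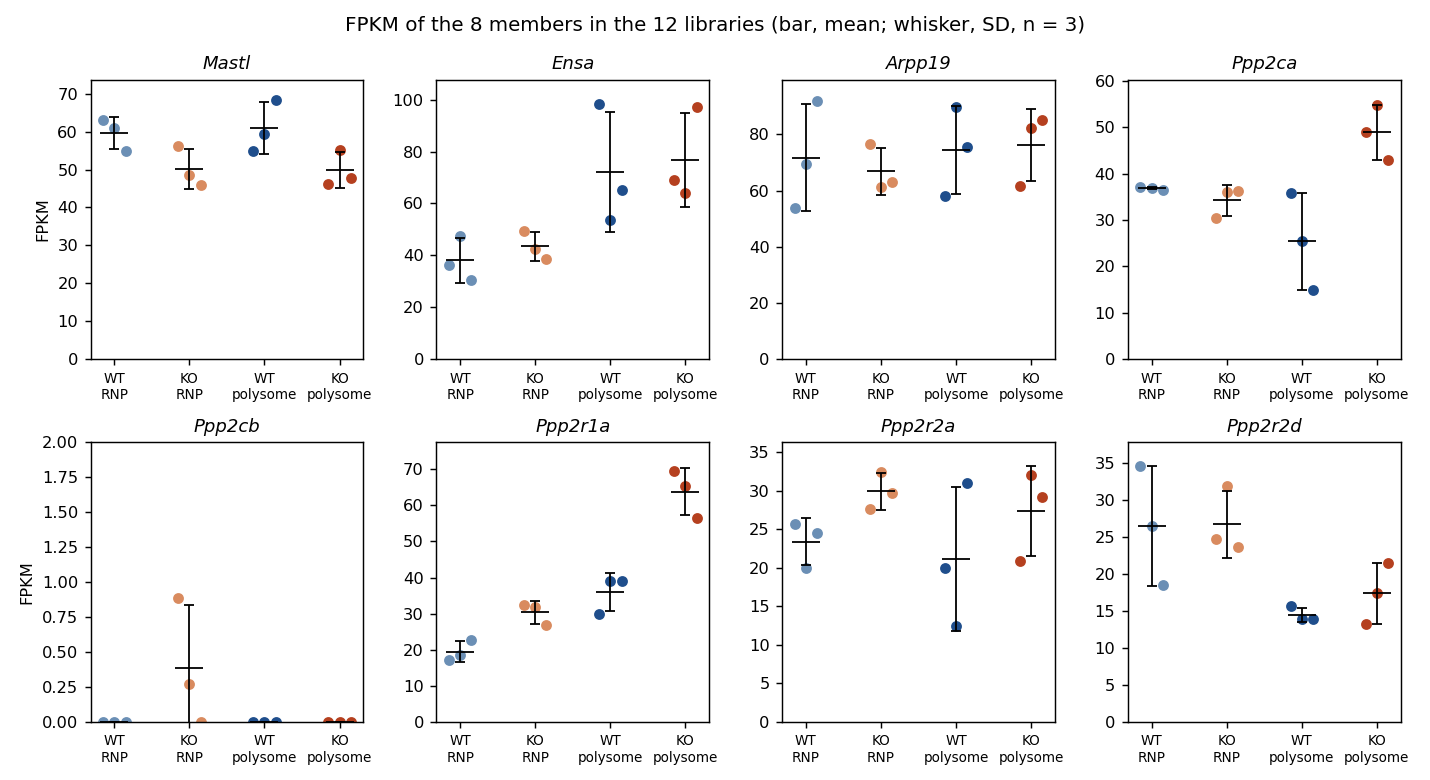
FPKM of the 8 genes on linear axes from 0 (each gene has its own scale), with 1 point for each of the 12 libraries, a bar for the mean and a whisker for the SD of 3 libraries. *Mastl* stays between 46.0 and 68.4 FPKM in every library, *Ppp2r1a* rises from 17.1 to 22.7 in WT RNPs to 56.6 to 69.5 in KO polysomes, and *Ppp2cb* is at 0 in 10 of 12.

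Counted over the axis, few of the 7 tested genes passed the test at an adjusted p under 0.05, and the counts are read against all genes tested. From WT to KO, *Ppp2r1a* was the 1 of 7 called in polysomes, where 10.4% of 9536 genes were called in either direction and 5.64% as higher. It was also the 1 of 7 called in RNPs, where 20.7% of 9931 genes were called and 10.5% as higher. Between the pools of WT oocytes *Ppp2r1a* was again the 1 of 7 called, higher in polysomes, where 14.7% of 9574 genes were called and 7.97% as higher. Between the pools of KO oocytes *Ppp2r1a*, *Ensa* and *Ppp2ca* were called, 3 of 7, all higher in polysomes, where 29.2% of 9851 genes were called and 15.5% as higher. In the polysome-to-RNP ratio, the test of whether the genotypes differ between pools, limma called 0 of 7, where 0.237% of 10949 genes were called and 0.0822% as higher.

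At an unadjusted p under 0.05 the counts of 7 were 2 in polysomes (26.3% of all genes), 1 in RNPs (34.1%), 3 between the WT pools (29.0%), 4 between the KO pools (40.2%) and 1 for the ratio (11.1%). Libraries of KO and WT polysomes did not overlap for *Ppp2ca* and *Ppp2r1a*, 2 of 7, against 31.7% of all genes. Those of KO and WT RNPs did not overlap for *Ppp2ca*, *Ppp2r1a* and *Ppp2r2a*, 3 of 7, against 39.2%. The pools did not overlap for *Ensa*, *Ppp2ca*, *Ppp2r1a* and *Ppp2r2d*, 4 of 7, in WT oocytes (34.6% of all genes) and for the same 4 in KO oocytes (44.2%). Of these 4, *Ensa*, *Ppp2r1a* and *Ppp2r2d* had the pools in the same order in both genotypes, and *Ppp2ca* did not. The median change of the 7 was 0.22 in polysomes, beside 0.10 for all genes, and 0.044 in RNPs, beside 0.054.

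*Mastl*, the kinase of the axis, lies on chromosome 2 at 23115606 to 23156024 on the minus strand (GRCm38, as are the positions of the other genes). Its mRNA stood at 63.2, 61.0 and 54.9 FPKM in the WT RNP libraries and at 56.1, 48.5 and 46.0 in the KO RNP libraries. In the polysome pool it stood at 54.9, 59.3 and 68.4 FPKM in WT and at 46.3, 55.3 and 47.8 in KO oocytes. The KO libraries were on average the lower ones in both pools, and the genotypes overlapped in both. The log2 change from WT to KO was -0.28 (SE 0.18, 95% interval -0.69 to 0.13, limma adjusted p = 0.365) in polysomes and -0.25 (SE 0.14, adjusted p = 0.257) in RNPs. Neither passed the threshold of 0.05, and each stayed below 0 with any 1 library left out (-0.36 to -0.20 in polysomes and -0.33 to -0.19 in RNPs). Between pools *Mastl* differed by 0.024 (SE 0.18, 95% interval -0.38 to 0.43, adjusted p = 0.945) in WT and by -0.010 (SE 0.15, 95% interval -0.34 to 0.32, adjusted p = 0.967) in KO oocytes. The polysome-to-RNP ratio of *Mastl* differed between genotypes by -0.034 (SE 0.22, 95% interval -0.50 to 0.43, adjusted p = 0.973) on the log2 scale. The group means of *Mastl* thus lay between 49.8 and 60.8 FPKM, and no difference between them was detectable at this spread.

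*Ensa*, on chromosome 3 at 95624993 to 95632102 on the plus strand, was the substrate gene whose polysome libraries lay above its RNP libraries in both genotypes. Its WT RNP libraries held 36.4, 47.3 and 30.4 FPKM and its WT polysome libraries 98.2, 53.5 and 65.1. Its KO RNP libraries held 49.6, 42.3 and 38.5 FPKM and its KO polysome libraries 68.9, 63.9 and 97.3. Every polysome library was above every RNP library of its genotype, and the genotypes overlapped within each pool. The log2 difference of polysomes over RNPs was 0.79 (SE 0.19, adjusted p = 0.0118) in KO oocytes, or 1.77-fold in mean FPKM, and *Ensa* remained called with any 1 library left out and under all 8 other settings. In WT oocytes it was 0.88 (SE 0.27, adjusted p = 0.0623), which missed the threshold. Among the 6 fits with 1 library left out it passed only without WT polysome replicate 2 (change 1.08, adjusted p = 0.0422, otherwise up to 0.177). KO and WT differed by 0.11 (SE 0.26, adjusted p = 0.833) in polysomes and 0.20 (SE 0.20, adjusted p = 0.512) in RNPs, and the ratio by -0.10 (SE 0.35, adjusted p = 0.952). A difference between pools was thus called in KO oocytes and not in WT oocytes, but the difference between genotypes itself was not shown.

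*Arpp19*, on chromosome 9 at 75037614 to 75060313 on the plus strand, did not follow *Ensa*. Its WT RNP libraries held 53.7, 69.6 and 91.9 FPKM and its WT polysome libraries 58.2, 89.7 and 75.4. Its KO RNP libraries held 76.4, 61.1 and 63.1 FPKM and its KO polysome libraries 61.6, 82.3 and 85.1. All groups overlapped. The 5 log2 changes lay between -0.07 and 0.18, with adjusted p of 0.453 to 0.931. Within a library *Ensa* made up 35.2% ± 8.99 (SD, n = 3) of the summed FPKM of both substrates in WT RNPs, 48.8% ± 12.9 in WT polysomes, 39.4% ± 1.50 in KO RNPs and 49.9% ± 5.42 in KO polysomes. This share does not depend on how a library was scaled. In KO oocytes the shares of the pools did not overlap (exact two-sided permutation test p = 0.1, the smallest that 3 against 3 can give, and 0.6 adjusted over 12 tests), so 3 libraries a group could not pass the threshold.

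*Ppp2ca*, on chromosome 11 at 52098681 to 52127778 on the plus strand, held nearly all of the summed FPKM of both catalytic subunit genes. Its RNP libraries held 37.1, 37.0 and 36.6 FPKM in WT and 30.4, 36.0 and 36.3 in KO oocytes. Its polysome libraries held 35.9, 25.5 and 14.9 FPKM in WT and 49.0, 54.8 and 43.0 in KO oocytes. The KO libraries were all above the WT libraries in polysomes and all below them in RNPs, and the WT polysome libraries, which spread more than 2-fold, were all below the WT RNP libraries. In polysomes the log2 change from WT to KO was 0.99 (SE 0.31, 95% interval 0.28 to 1.71, adjusted p = 0.0797), or 1.93-fold in mean FPKM, which missed the threshold. It passed without WT polysome replicate 1, the highest of its group (change 1.28, adjusted p = 0.0367), and with no other library left out. In RNPs the change was -0.11 (SE 0.15, adjusted p = 0.668).

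Polysomes over RNPs, *Ppp2ca* changed by 0.50 (SE 0.16, adjusted p = 0.0422) in KO oocytes, or 1.43-fold in mean FPKM, and by -0.60 (SE 0.32, adjusted p = 0.247) in WT oocytes. The call in KO oocytes was kept only without KO polysome replicate 3. With any 1 of the other 5 libraries left out, among them the KO polysome library of replicate 2 that stood apart (change 0.42, adjusted p = 0.113), the adjusted p was 0.0675 to 0.151. The polysome-to-RNP ratio, which tests whether the genotypes differ, was higher in KO oocytes by 1.10 (SE 0.36, 95% interval 0.33 to 1.88, unadjusted p = 0.00886, adjusted p = 0.247), so it did not pass over all genes. The mRNA of *Ppp2ca* overlaps antisense transcripts, and 40.1% of the windows of 100 bases of its longest coding transcript also occur in other annotated genes. Nearly all of these lie in 9430098F02Rik, which spans 52124530 to 52127779 on the opposite strand. That span lies past the end of the *Ppp2ca* locus in the deposited table at 52122749. The library kits are not stated to keep strand. The cumulus and granulosa sums and the oocyte marker sums were higher in KO polysomes too, and their part in the result was not tested.

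*Ppp2cb*, on chromosome 8 at 33599625 to 33619441 on the plus strand, encodes the other catalytic subunit. Its locus in the deposited table runs past that end, to 33641976, and the effect on its values was not tested. *Ppp2cb* was listed at 0 in 10 of 12 libraries and at 0.883 and 0.271 FPKM in KO RNP replicates 1 and 2. The coding sequences of *Ppp2ca* and *Ppp2cb* share 760 of 926 aligned bases (82.1%), and no window of 100 bases of *Ppp2cb* occurs in another gene. *Ppp2ca* therefore made up 100% of the summed FPKM of both genes in 10 libraries and 98.8% ± 1.46 (SD, n = 3) in the KO RNP group.

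*Ppp2r1a*, on chromosome 17 at 20945311 to 20965916 on the plus strand, encodes the scaffold on which the catalytic and regulatory subunits assemble, and it was the member with the most calls. Its RNP libraries held 17.1, 18.5 and 22.7 FPKM in WT and 32.5, 31.7 and 26.8 in KO oocytes. Its polysome libraries held 30.0, 39.1 and 38.9 FPKM in WT and 69.5, 65.4 and 56.6 in KO oocytes. No groups overlapped within a genotype or within a pool. It rose from WT to KO by 0.81 on the log2 scale (SE 0.20, adjusted p = 0.0359) in polysomes, or 1.77-fold in mean FPKM, and by 0.62 (SE 0.19, adjusted p = 0.0480), or 1.56-fold, in RNPs. From RNPs to polysomes it rose by 0.86 (SE 0.24, adjusted p = 0.0490), or 1.85-fold, in WT and by 1.05 (SE 0.15, adjusted p = 0.00102), or 2.10-fold, in KO oocytes. These comparisons share libraries, so the calls are not independent of each other. The polysome-to-RNP ratio differed by 0.19 (SE 0.26, 95% interval -0.38 to 0.76, adjusted p = 0.844), so a difference in the genotype change between pools was not detectable.

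Only the difference between pools in KO oocytes was firm for *Ppp2r1a*, with an adjusted p of 0.00187 to 0.00569 when 1 library was left out. The call in polysomes between genotypes was lost with any 1 of its 6 libraries left out (changes 0.69 to 0.90, adjusted p 0.0502 to 0.135), and was 0.135 without the KO polysome library that stood apart. The call in RNPs was kept only without WT RNP replicate 3 (adjusted p = 0.0314) and was otherwise 0.0816 to 0.166. The call between the WT pools was kept only without WT polysome replicate 1 (adjusted p = 0.0495). The direction was the same in all of these fits. The cumulus and granulosa sums did not overlap between the genotypes either, in polysomes or in RNPs. The same held for the oocyte marker sums, and the part of either in the result was not tested.

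**Figure D2:**
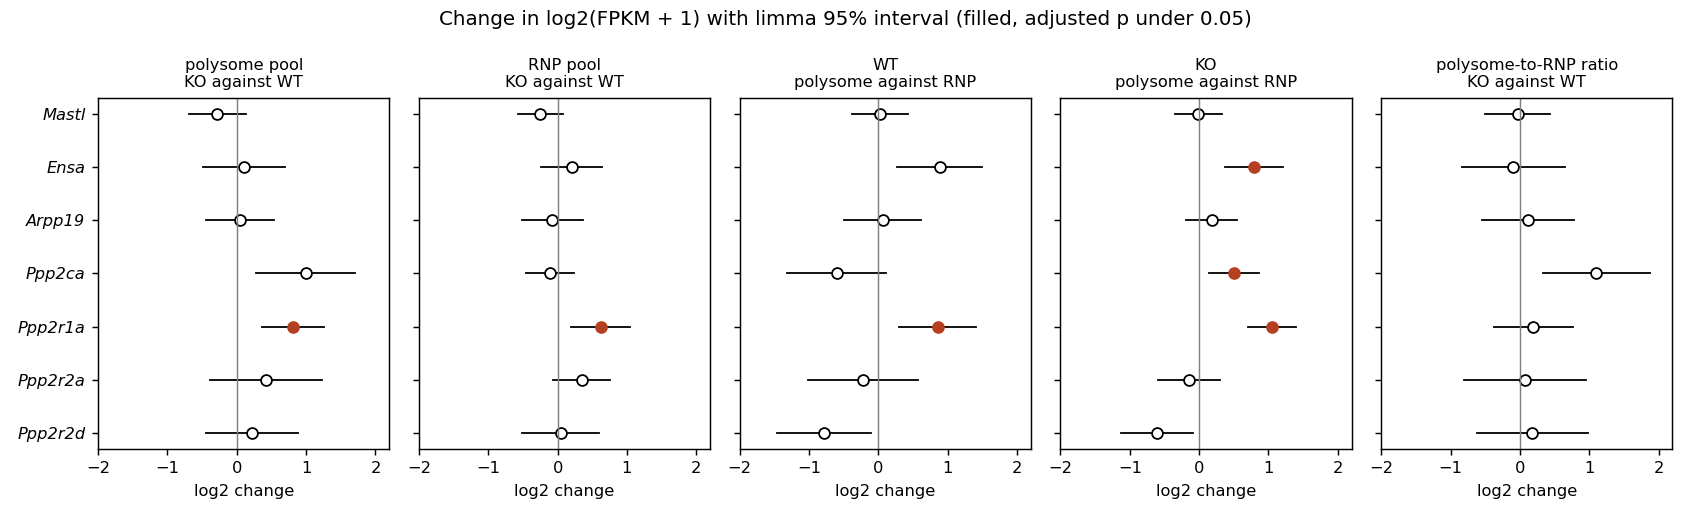
Change in log2(FPKM + 1) of the 7 tested genes in the 5 comparisons, as points with the 95% interval of limma, filled where the adjusted p was under 0.05. *Ppp2r1a* is filled in 4 panels (0.62 to 1.05), *Ensa* and *Ppp2ca* only for KO polysomes over RNPs (0.79 and 0.50), and *Mastl* lies near 0 between pools.

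The B55 subunits, which direct PP2A to its substrates and are the subunits that ENSA and ARPP19 hold in check, came next, and neither *Ppp2r2a* nor *Ppp2r2d* passed in any of the 5 comparisons. *Ppp2r2a*, on chromosome 14 at 67014056 to 67072444 on the minus strand, held 25.7, 19.9 and 24.4 FPKM in WT RNPs, 27.6, 32.4 and 29.7 in KO RNPs, 20.0, 12.4 and 31.0 in WT polysomes and 20.9, 32.0 and 29.2 in KO polysomes. Only the RNP groups did not overlap, with KO above WT (change 0.35, SE 0.18, adjusted p = 0.209). *Ppp2r2d*, on chromosome 7 at 138846079 to 138883057 on the plus strand, held 34.6, 26.5 and 18.5 FPKM in WT RNPs, 24.7, 32.0 and 23.6 in KO RNPs, 15.6, 14.0 and 14.0 in WT polysomes and 13.2, 17.5 and 21.5 in KO polysomes. Its polysome libraries were all below the RNP libraries of their genotype. The changes of *Ppp2r2d* from RNPs to polysomes were -0.79 (SE 0.30, adjusted p = 0.120) in WT and -0.61 (SE 0.23, adjusted p = 0.0752) in KO oocytes, neither of which passed. Without KO polysome replicate 3 the change in KO oocytes was -0.76 with an adjusted p of 0.0407. This was the 1 of 6 fits with a library left out that passed (adjusted p up to 0.241), and 0 of 8 other settings did.

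The share of *Ppp2r2a* in the summed FPKM of *Ppp2r2a* and *Ppp2r2d* was 47.5% ± 8.19 in WT RNPs, 57.4% ± 11.0 in WT polysomes, 52.9% ± 2.67 in KO RNPs and 61.2% ± 3.50 in KO polysomes (SD, n = 3). The pools did not overlap in KO oocytes (exact permutation p = 0.1, adjusted p = 0.6). The coding sequences of both genes share 1040 of 1340 aligned bases (77.6%), with no shared stretch over 18 bases. Of the windows of *Ppp2r2a*, 1.15% also occur in the pseudogene Gm19221, and the locus of *Ppp2r2d* overlaps *Mapk1ip1* on the opposite strand.

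*Ppp2r2b*, a further B55 gene outside the 8, was the B55 transcript with the highest FPKM in most libraries, a point looked at after its values were seen. It held 44.9, 45.9 and 46.9 FPKM in WT RNPs, 70.8, 78.6 and 71.9 in KO RNPs, 34.3, 45.8 and 23.5 in WT polysomes and 60.6, 81.5 and 56.9 in KO polysomes. It stood above *Ppp2r2d* in 12 of 12 libraries and above *Ppp2r2a* in 11 of 12. Its share of the FPKM of the 4 B55 genes was 48.1% ± 5.09 in WT RNPs, 56.6% ± 1.52 in KO RNPs, 49.0% ± 14.6 in WT polysomes and 59.7% ± 5.96 in KO polysomes. From WT to KO it rose by 0.67 in RNPs (SE 0.13, adjusted p = 0.00631), and by 0.95 in polysomes with an adjusted p of 0.0595, which missed the threshold although no libraries overlapped. *Ppp2r2c*, the remaining B55 gene, was at most 0.665 FPKM.

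**Figure D3:**
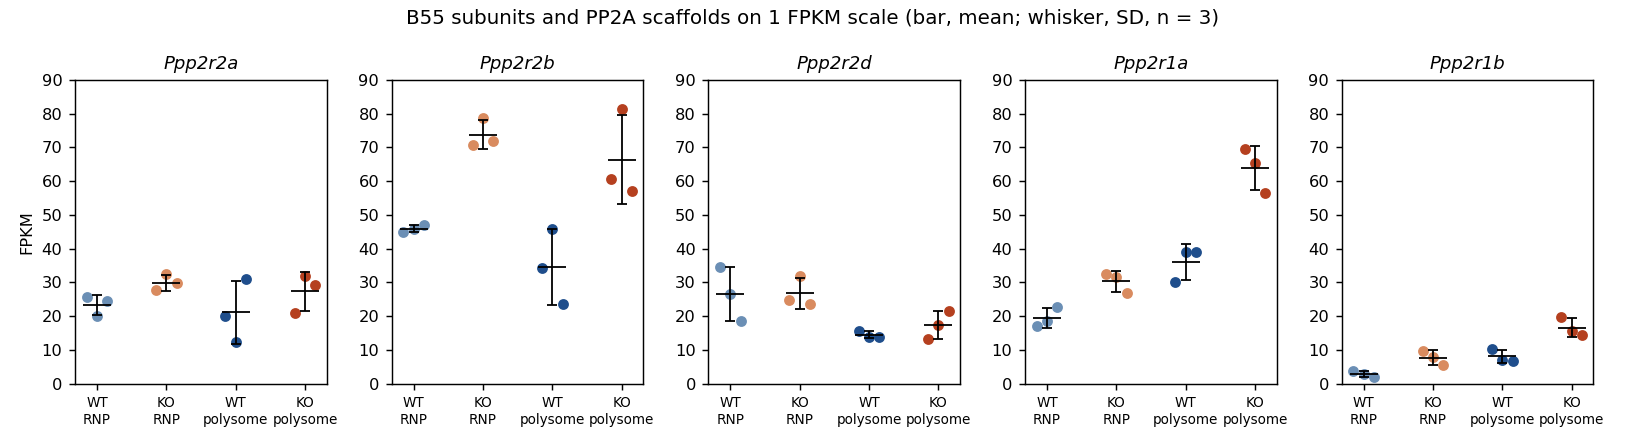
FPKM of 3 B55 genes and both scaffold genes on 1 shared linear axis from 0, with 1 point for each library, a bar for the mean and a whisker for the SD of 3 libraries. *Ppp2r2b* lies above *Ppp2r2d* in all 12 libraries and *Ppp2r1a* above *Ppp2r1b* in all 12, and both scaffold genes are highest in KO polysomes.

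The other subunits of PP2A, 14 genes of which 11 could be tested, were described next. In RNPs 2 of 11 rose from WT to KO and none fell, beside 20.7% of all genes called and 10.5% called as higher. They were *Ppp2r2b*, described above, and *Ppp2r1b*, the second scaffold gene, which held 3.63, 2.86 and 1.95 FPKM in WT and 9.83, 7.83 and 5.47 in KO RNPs (change 1.18, SE 0.34, adjusted p = 0.0388). The call of *Ppp2r1b* was kept only without WT RNP replicate 1 (adjusted p = 0.0435) and lost with any 1 of the other 5 left out (0.0546 to 0.159). In polysomes, where 10.4% of all genes were called and 5.64% as higher, 1 of 11 rose, *Strn* (striatin, a regulatory subunit of PP2A in STRIPAK complexes), by 0.85 (SE 0.20, adjusted p = 0.0308), a call kept only without WT polysome replicate 2 (adjusted p = 0.0198, otherwise 0.0678 to 0.117). The median change of the 11 was 0.49 in polysomes and 0.25 in RNPs, beside 0.10 and 0.054 for all genes.

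Between pools, *Strn4* (another striatin) fell from RNPs to polysomes by 1.81 on the log2 scale in WT (SE 0.32, adjusted p = 0.00681), the only one of 11 called there, beside 14.7% of all genes. In KO oocytes 5 of 11 were called, beside 29.2% of all genes. The B″ gene *Ppp2r3c* (1.36, SE 0.22), *Strn* (1.19, SE 0.13) and *Ppp2r1b* (1.03, SE 0.27) were higher in polysomes. *Strn4* (-1.06, SE 0.21) and the B56 gene *Ppp2r5c* (-0.95, SE 0.27) were lower there. The adjusted p of these 5 lay between 0.000184 and 0.0259. Leaving out 1 library kept the calls of *Ppp2r3c*, *Strn* and *Strn4* in every case, that of *Ppp2r1b* without KO RNP replicate 1 or KO polysome replicates 2 or 3 (otherwise 0.0501 to 0.0687), and that of *Ppp2r5c* without KO RNP replicate 3 or KO polysome replicate 3 (otherwise 0.063 to 0.0968). Both scaffold genes were thus higher in KO polysomes than in KO RNPs, and none of the 3 B55 genes tested was called there. In WT oocytes the changes of *Ppp2r1b* (1.25, SE 0.43, adjusted p = 0.0856), *Ppp2r3c* (0.85), *Strn* (0.77) and *Ppp2r5c* (-0.93) had the same directions. None of these was called in WT. In the polysome-to-RNP ratio limma called 0 of 11, beside 0.237% of all genes, so a difference between genotypes was not shown.

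Genes for the assembly and inhibition of PP2A moved both ways between genotypes. In RNPs 1 of 11 rose and 4 fell, beside 20.7% of all genes called and 10.5% called as higher. *Igbp1*, which encodes a protein that holds free catalytic subunits, rose from 48.4, 31.5 and 28.2 FPKM in WT to 77.1, 72.6 and 67.2 in KO (change 1.02, SE 0.20, adjusted p = 0.00809). *Bod1*, whose protein inhibits PP2A-B56, fell from 188, 217 and 187 FPKM to 84.9, 108 and 106 (change -0.99, SE 0.13, adjusted p = 0.000968). *Ppp2r4* (also *Ptpa*), an activator of PP2A, fell from 16.8, 13.9 and 24.7 FPKM to 7.23, 5.29 and 3.43 (change -1.63, SE 0.33, adjusted p = 0.00819). These 3 calls in RNPs were kept with any 1 library left out. In polysomes the fall of *Ppp2r4* was not seen (change 0.16, SE 0.55, limma adjusted p = 0.882). *Igbp1* (0.56) and *Bod1* (-0.79) kept their directions in polysomes but were not called.

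*Fam122a*, whose protein inhibits PP2A-B55, fell in RNPs from 52.2, 23.4 and 65.7 to 8.92, 9.44 and 23.0 FPKM (change -1.71, SE 0.43, adjusted p = 0.0220), a call kept without WT RNP replicate 2 or KO RNP replicate 3 and lost with any 1 of the other 4 left out (0.0623 to 0.0771). *Tiprl*, a further regulator that binds free catalytic subunits, was lower in KO in both pools, by -1.18 in RNPs (SE 0.30, adjusted p = 0.0224) and by -2.16 in polysomes (SE 0.54, adjusted p = 0.0387). The RNP call of *Tiprl* was kept without WT RNP replicates 2 or 3 or KO RNP replicate 2 (otherwise 0.0601 to 0.0837), and its polysome call was lost with any 1 of the 6 libraries left out (0.0508 to 0.118). *Ppme1*, which encodes the methylesterase of the catalytic subunit, rose in polysomes from 129, 128 and 97.6 FPKM to 206, 209 and 233 (change 0.87, SE 0.15, adjusted p = 0.0112). With 1 library left out this call was lost only without KO polysome replicate 3 (adjusted p = 0.0516), and 7 of 8 other settings kept it (adjusted p up to 0.0833). In polysomes 1 of 10 rose and 1 fell, beside 10.4% of all genes called and 5.64% called as higher. The median change of this list was 0.18 in polysomes and -0.20 in RNPs, beside 0.10 and 0.054 for all genes. In the polysome-to-RNP ratio none of its 11 genes passed by limma, beside 0.237% of all genes, and 2 had an unadjusted p under 0.05, beside 11.1% of all genes.

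**Figure D4:**
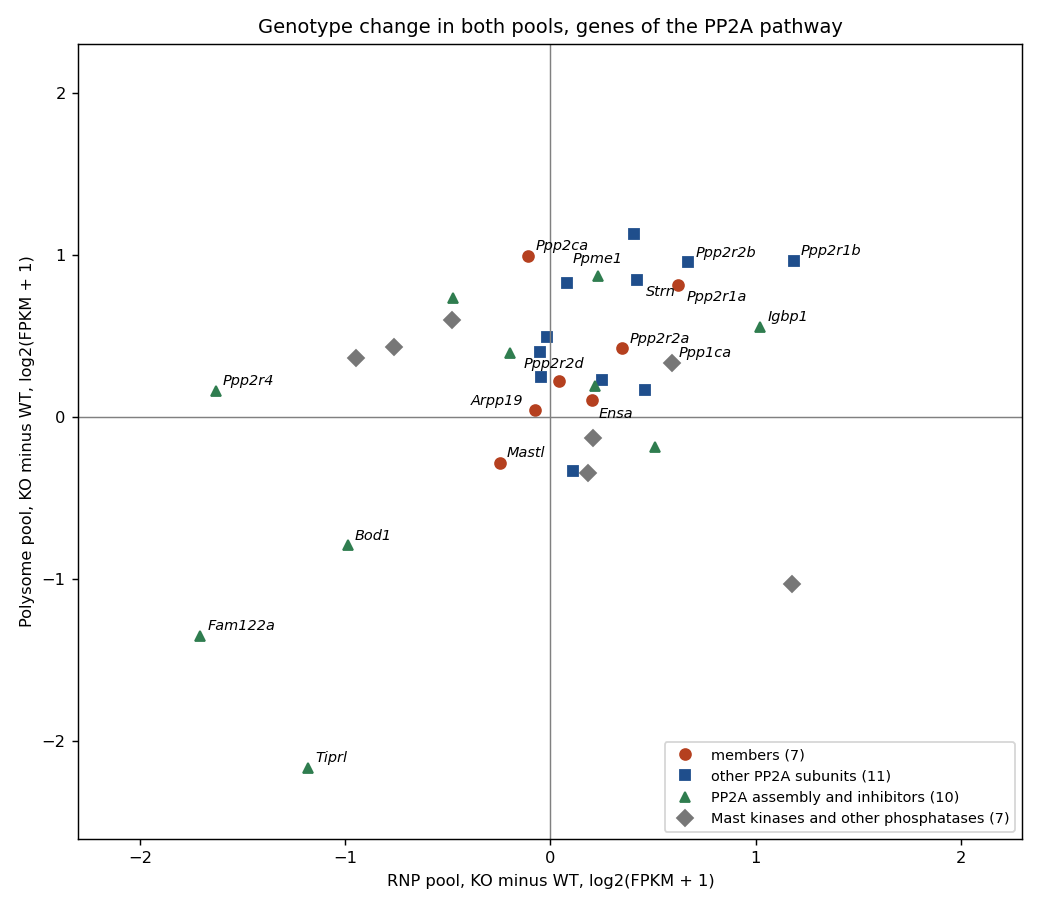
Change from WT to KO in log2(FPKM + 1) in the RNP pool (x axis) and the polysome pool (y axis), with 1 point for each gene tested in both, marked by list, and names for members and for genes called in either pool. *Ppp2r1a*, *Ppp2r1b* and *Ppp2r2b* lie to the upper right, *Tiprl*, *Fam122a* and *Bod1* to the lower left, and *Ppp2ca* is high on the y axis (0.99) and near 0 on the x axis (-0.11).

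The genes whose pattern over the 12 libraries was most like that of the kinase and its substrates were named from 4267 genes with at least 5 FPKM in every library, by Pearson correlation of log2(FPKM + 1), as a description. *Mastl* was most like *Timm10* (r = 0.913), *Mfng* (0.871) and *Ppt2* (0.835). *Ensa* was most like *Ppt1* (0.961), *Unc13c* (0.922) and *Akap1* (0.910), and *Arpp19* most like *Kif16b* (0.824), *Gm10033* (0.821) and *Zfp592* (0.798). The 12 points share genotype, pool and depth, and the highest of 4267 values is large by selection.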

How the data were processed

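RNP and polysome pools of oocyte lysates gave 12 libraries, amplified by Smart-seq2 and read as paired ends of 150 bp. Per the labels and the paper, TopHat2 2.0.13 aligned them to mm10, and the authors' FPKM per gene and library came from Cufflinks 2.2.1. The deposited table also holds Cuffdiff comparisons of the authors (log2 changes, p-values and q-values), which were not used. The annotation release is not given in the sources used here. The sources differ on the library kit and on the top sucrose concentration.

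Groups came from the sample labels. Nothing states that the libraries of a group came from separate animals, so p-values measure the spread between these libraries, which may be technical. FPKM are not counts, so no count test was run. A gene entered a comparison when 3 or more of its libraries reached 1 FPKM, and was tested on log2(FPKM + 1) with limma 3.58.1 in R 4.3.3 (intensity trend, empirical Bayes), with Benjamini-Hochberg adjustment over all of them and a threshold of 0.05. Fold changes on this scale understate those of low genes. Each comparison used its own 6 libraries, and the polysome-to-RNP ratio, an interaction of genotype and pool, used all 12. Shares within pairs of genes were compared by exact two-sided permutation tests, adjusted over 12. The fits on 6 libraries, but not that of the ratio, were run on simulated data with independent noise for each gene. These held no outlying library, and their outcome is not given here.

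The 8 genes and the lists (14 other PP2A subunits, 11 genes of PP2A assembly and inhibition, 8 kinases of the Mast family and other phosphatases, and cell type markers) were chosen with earlier results of these data known. Genes of these lists were named where called, at most 4 per list and comparison. Alternatives were other pseudocounts, filters and scalings, a replicate block, no intensity trend, and leaving out each library in turn. For called genes outside the 8 the alternatives were added after seeing the data. Depth was estimated from the steps between low FPKM values, with 200 bases taken off the transcript length, and its precision is unknown. Positions and sequences came from GENCODE M21 on GRCm38, and all 8 genes matched by symbol. Coding sequences were aligned with Biopython 1.88.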

Additional observations from a re-analysis of the deposited data

Results flagged for a closer look

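*Ppp2ca* was picked out because its libraries of KO and WT lay in opposite order in the 2 pools. Every KO library was above every WT library in polysomes (log2 change 0.99). In RNPs every KO library was below every WT library, but narrowly, with a KO maximum of 36.3 FPKM and a WT minimum of 36.6. The RNP change was -0.11 (SE 0.15, limma adjusted p = 0.668), so no difference was detectable there. Seen between pools, *Ppp2ca* was lower in polysomes in WT (-0.60) and higher in KO oocytes (0.50), again with no overlap. The difference itself was tested as the interaction of genotype and pool, 1.10 (SE 0.36, unadjusted p = 0.00886, adjusted p = 0.247 over 10949 genes), and did not pass. It was above 0 with any 1 of the 12 libraries left out (0.78 to 1.38, adjusted p 0.110 to 0.491). Of all genes tested, 11.1% had an unadjusted p under 0.05 for this term.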

How the results depend on the processing

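Over the 7 tested members and 5 comparisons, 463 of the recomputed changes kept direction and side of the threshold, 34 fell short of it, 4 newly passed and 31 changed sign. The count of members called fell from 1 to 0 in polysomes between genotypes, in RNPs between genotypes and between the WT pools with no filter on low values, and likewise with no intensity trend. With a filter at 5 FPKM it was 2 between the WT pools, where *Ensa* joined (adjusted p = 0.0463). *Ppp2r1a* had an adjusted p of 0.0530 and 0.0988 in polysomes, 0.0592 and 0.0741 in RNPs and 0.0561 and 0.0841 between the WT pools with no filter and with no trend. *Ppp2ca* between the KO pools was 0.0523 and 0.0888, and 0.0754 after quantile normalization. The causes were not tested, and the number of genes tested was larger without a filter.

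Leaving out 1 library gave 0 to 1 members called in polysomes, 0 to 1 in RNPs, 0 to 1 between the WT pools, 2 to 4 between the KO pools and 0 to 0 for the ratio. Changes that crossed 0 ranged, in polysomes between genotypes, from -0.12 to 0.19 for *Arpp19* and -0.084 to 0.35 for *Ensa*. In RNPs they ranged from -0.26 to 0.12 for *Arpp19* and -0.18 to 0.25 for *Ppp2r2d*. Between the WT pools they ranged from -0.12 to 0.26 for *Arpp19*, -0.061 to 0.094 for *Mastl* and -0.53 to 0.098 for *Ppp2r2a*, and *Mastl* was also -0.031 after quantile normalization. Between the KO pools they ranged from -0.086 to 0.071 for *Mastl* and -0.26 to 0.034 for *Ppp2r2a*. For the ratio they ranged from -0.029 to 0.41 for *Ppp2r2d*, -0.11 to 0.051 for *Mastl*, -0.29 to 0.15 for *Ensa*, -0.076 to 0.31 for *Arpp19* and -0.24 to 0.39 for *Ppp2r2a*. None of these changes had been called. From FPKM + 1 the share of *Ppp2ca* differed by 2.08 percentage points in polysomes between genotypes and by -1.49 between the WT pools, both 0 from FPKM.

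Same-numbered libraries did not deviate together (correlations of -0.024 to 0.016). Deviations from means of 3 libraries can hide a pairing, and none is stated, so whether the numbers pair the libraries is unknown. With the replicate number as a block the members called were 0 in polysomes, 0 in RNPs and 0 between the WT pools (adjusted p of *Ppp2r1a* 0.0801, 0.0941 and 0.0803), *Ppp2ca* between the KO pools had 0.0626, and all genes called for the ratio fell from 26 to 0. All genes called in polysomes were 545 with no filter, 508 with no trend and 383 to 790 with 1 library left out, beside 989. Between the WT pools they were 728 with no trend and 780 to 1212 with 1 library left out, beside 1406. In RNPs they were 1255 to 1911 with 1 library left out, beside 2057, and for the ratio 6 with no trend and 0 to 46 with 1 left out, beside 26. For called genes outside the 8, 265 recomputed changes stayed called, 71 fell short and none changed sign. No difference in *Ppp2cb*, at or near 0 throughout, was detectable at this depth.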

Other observations

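The other kinases of the Mast family and the phosphatases PP1 and *Ctdp1* had not been described above. Between genotypes none of 7 tested passed in polysomes by limma, beside 10.4% of all genes called, and 1 had an unadjusted p under 0.05, beside 26.3% of all genes. In RNPs 1 of 7 rose, beside 20.7% of all genes called and 10.5% called as higher. This was *Ppp1ca*, a catalytic subunit of PP1, at 31.0, 26.6 and 39.1 FPKM in WT and 44.2, 47.8 and 53.7 in KO (change 0.59, SE 0.18, adjusted p = 0.0480), a call kept only without WT RNP replicate 3 (adjusted p = 0.0201, otherwise 0.0892 to 0.166). Between the KO pools 2 of 7 were called, beside 29.2% of all genes. *Mast4* was higher in polysomes, at 16.4, 16.2 and 14.8 FPKM against 3.20, 5.18 and 5.75 in RNPs (change 1.58, SE 0.27, adjusted p = 0.00230), and stayed called with any 1 library left out. *Ppp1cb* was lower there, at 4.93, 8.27 and 12.3 FPKM against 19.3, 19.1 and 14.1 (change -1.02, SE 0.32, adjusted p = 0.0390), kept only without KO polysome replicate 3 (adjusted p = 0.0135, otherwise 0.0573 to 0.121). In WT oocytes *Ppp1cb* was instead higher in polysomes, with no overlap, but was not called (change 1.19, SE 0.43, adjusted p = 0.103). Its polysome-to-RNP ratio differed between genotypes by -2.21 (SE 0.55, limma unadjusted p = 0.00143, adjusted p = 0.140), which did not pass. *Mast2* was the Mast kinase with the highest mean FPKM after *Mastl* in every group, and *Mast1* was at most 0.0671 FPKM.

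Between the KO pools 3 of 10 genes of PP2A assembly and inhibition were higher in polysomes and none lower, beside 29.2% of all genes called and 15.5% called as higher. *Fam122b* stood at 22.7, 36.0 and 34.7 FPKM against 9.55, 11.6 and 8.16 in RNPs (change 1.56, SE 0.24, adjusted p = 0.00137), *Igbp1* changed by 0.86 (SE 0.13, adjusted p = 0.000982) and *Ppme1* by 0.58 (SE 0.12, adjusted p = 0.00563). All 3 stayed called with any 1 library left out. In WT oocytes 2 of 10 were called, beside 14.7% of all genes: *Igbp1* was higher in polysomes by 1.33 (SE 0.25, adjusted p = 0.0102), and *Bod1* was lower by -0.66 (SE 0.17, adjusted p = 0.0359), the latter call kept only without WT polysome replicate 1 (adjusted p = 0.0134, otherwise 0.0784 to 0.125).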
